A study of Mus musculus with 11 samples.

Results

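The 2 single mutants of the study, NFKO and AnkGKO, were compared directly with each other, without using the controls in the contrast. Of 11 libraries of polyadenylated RNA, the 3 labelled NFKO and the 2 labelled AnkGKO were chosen by their genotype labels, and 17557 of the 22609 genes listed had at least 10 counts over all libraries and were tested. NFKO mice carried Pcp2-Cre with 2 floxed copies of Nfasc, and AnkGKO mice carried Pcp2-Cre with 2 floxed copies of AnkG, the gene listed as Ank3. By the series' design text the 3 controls carried both floxed genes without Cre, and the 3 DKO libraries carried both floxed genes with Cre. The sources differ on the controls, since the study's methods also allow a single floxed gene without Cre and its results text writes Pcp2-Cre in their genotype, and the control label itself gives no alleles. By their labels NFKO and DKO shared floxed Nfasc, and AnkGKO and DKO shared floxed AnkG. All mice were untreated, on a mixed C57BL/6J;129 background by the growth protocol and C57BL/6J by the sample description, and were collected at postnatal day 30 or 32, depending on which of these is read. Each library is listed as a separate biological replicate, and all 11 carry the same batch label.

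Nfasc encodes the neurofascins. NF186, its neuronal isoform, is a cell adhesion molecule of the axon initial segment (AIS) and the nodes of Ranvier, and NF155, made from the same gene, is its glial counterpart at the paranodes. AnkG is the scaffold that lies under the AIS membrane and binds NF186, voltage-gated sodium channels, Kv7 potassium channels and βIV spectrin. Pcp2-Cre is active mainly in Purkinje cells, which are a small part of cerebellar tissue, so most RNA of such tissue would come from cells that keep both genes. In bulk tissue, fewer cells of a type and less RNA per cell cannot be told apart.

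The labelled tissue was checked first, since it bears on every value that follows. Reads on genes totalled 50126172 to 53758610 in NFKO and 47374325 and 47428701 in AnkGKO. Expression is given as CPM, the read count scaled to a common library total after TMM normalization, and 3 counts corresponded to 0.0557 to 0.0652 CPM in these 5 libraries. Pcp2, the defining Purkinje cell gene, stood at 28.3, 2.14 and 0.0929 CPM in NFKO replicates 1, 2 and 3 and at 0.103 and 0.174 CPM in AnkGKO replicates 1 and 2. The 10 cerebellar granule cell genes summed to 644, 184 and 128 CPM in NFKO and to 125 and 105 CPM in AnkGKO, while 18 Hox genes of caudal neural tissue summed to 680 to 747 CPM in all 5. Cerebellar markers were thus clear in NFKO replicate 1 only, and the other 4 libraries went against the label cerebellar hemisphere. In NFKO replicate 1 the caudal Hox genes summed to 709 CPM, so the Hox values went against that label in all 5. Controls and DKO were alike in this, with granule cell sums of 112 to 762 CPM and 106 to 145 CPM and caudal Hox sums of 621 to 786 CPM. Skeletal muscle genes (8 genes) summed to 72.3, 339 and 2.32 CPM in NFKO and to 2.58 and 1.96 CPM in AnkGKO. All 5 libraries had male-typical values, with Xist at most 1.39 CPM and Ddx3y at least 89.6 CPM, so this contrast did not set sexes against each other. The 10 sex-linked genes summed to 562 to 603 CPM in these 5. They summed to 581 to 1116 CPM in controls and to 694 to 1037 CPM in DKO, so these groups may mix sexes.

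Comparison of NFKO with AnkGKO identified 71 genes, which is 0.404% of those tested (adjusted p-value under 0.05 and absolute log2 fold change of at least 0.6). Of these, 29 (0.165%) were higher in NFKO and 42 (0.239%) were higher in AnkGKO. The median absolute log2 fold change of the 71 was 1.44. The signed median over all genes tested, a different measure, was 0.0018. In all 71 the NFKO and AnkGKO libraries did not overlap. Among all genes tested, 12.1% had every NFKO library above both AnkGKO libraries and 11.8% had every NFKO library below them. An unadjusted p-value under 0.05 was found for 1339 genes, where 878 would be expected with no difference anywhere. The quasi-likelihood test of edgeR was fitted over all 11 libraries, so that controls and DKO added to the estimate of the spread, with p-values adjusted by Benjamini and Hochberg's method. Below, log2FC is the log2 fold change of NFKO minus AnkGKO, and SE its standard error. With only the 5 compared libraries the count was 69, of which 42 were among the 71. When 1 library was left out the count fell to 37 without NFKO replicate 1, 52 without NFKO replicate 2, 35 without NFKO replicate 3, 28 without AnkGKO replicate 1 and 29 without AnkGKO replicate 2, and 19 genes were called in all 5 of these fits. With the mean log2 level of the granule cell genes as a covariate 42 genes were called, and with the skeletal muscle genes, an alternative chosen after the data were seen, 48 were.

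**Figure D1:**
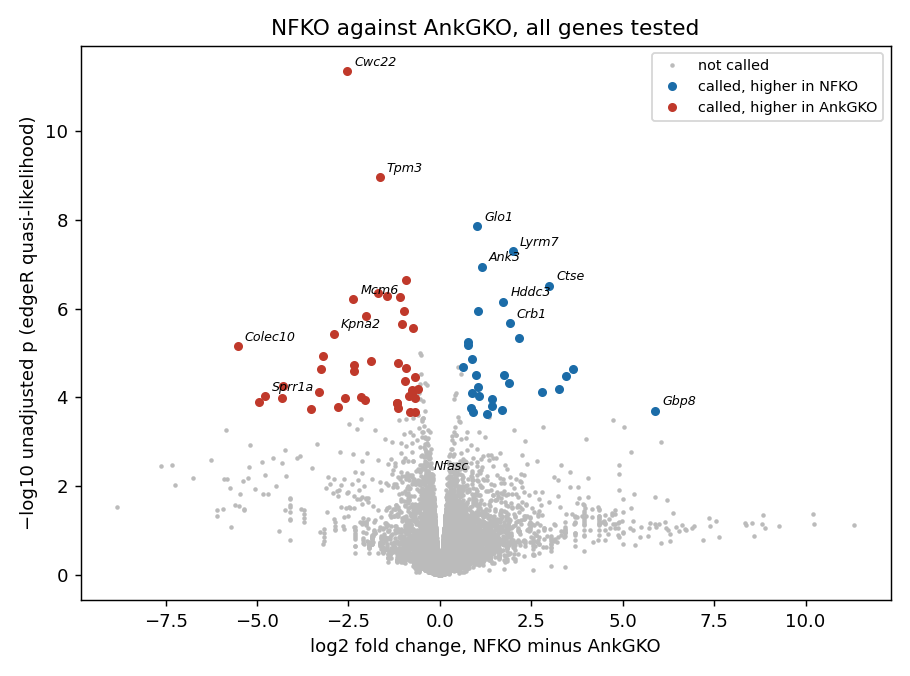
Each point is 1 of 17557 genes tested, with the log2 fold change of NFKO minus AnkGKO on the x axis and −log10 of the unadjusted p-value of edgeR's quasi-likelihood test on the y axis. Blue points are the 29 genes called higher in NFKO and red points the 42 called higher in AnkGKO, with Cwc22 and Tpm3 at the smallest p-values.

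The control and DKO means, which the contrast did not use, were each assigned for every called gene to the nearer mutant mean. No margin was required, so a group set apart in this way can lie close to the others. The control mean was nearer NFKO for 35 of the 71 genes and nearer AnkGKO for 36. Both the control and the DKO mean were nearer AnkGKO for 34 genes, so that NFKO was the group apart. Both were nearer NFKO for 28 genes, so that AnkGKO was the group apart. For 7 genes (Ank3, Mcf2, Colec10, Phgdh, Ecel1, Sprr1a and Padi1) control was nearer NFKO and DKO nearer AnkGKO, which splits the 4 groups by whether AnkG was targeted. The reverse, a split by whether Nfasc was targeted, was seen in 2 genes, Chi3l1 and Chdh. Against the same 3 controls, 27 of the 71 genes also passed both thresholds in NFKO, 19 in AnkGKO, none in both, and 25 in neither.

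**Figure D2:**
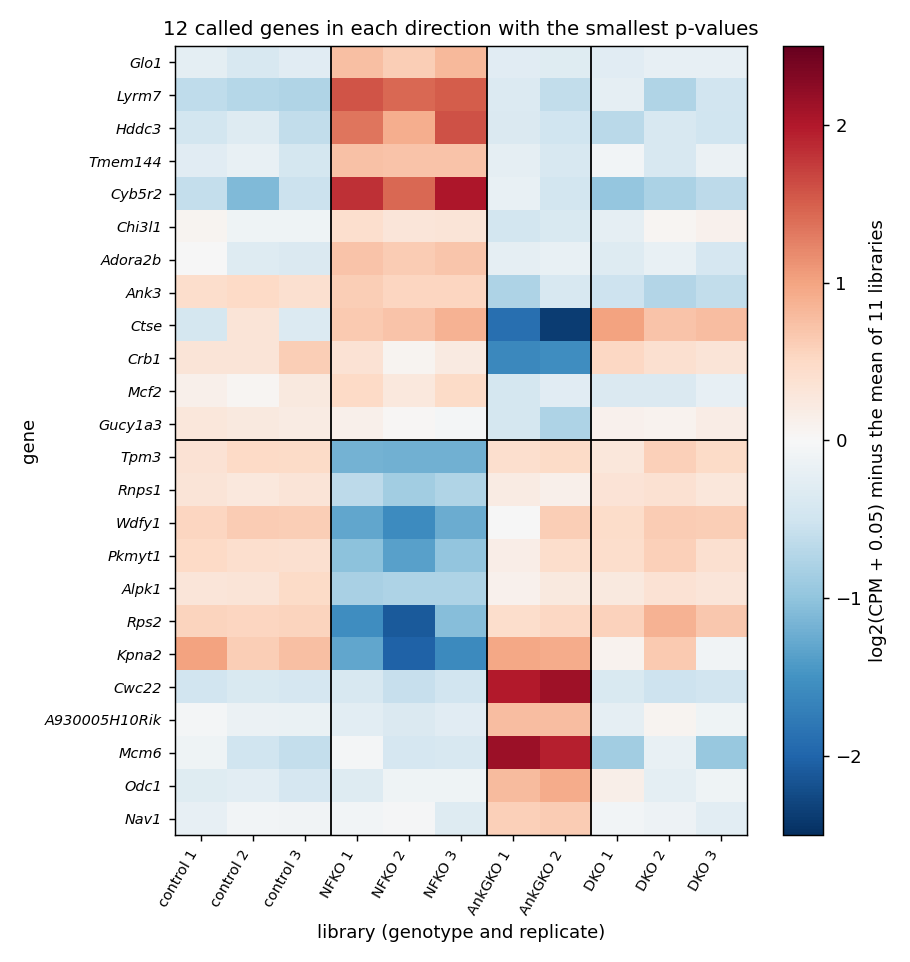
Rows are the 12 genes higher in NFKO (upper block) and the 12 higher in AnkGKO (lower block) with the smallest p-values, and columns are the 11 libraries. Colour is log2(CPM + 0.05) minus the mean of the 11 libraries. In 13 rows NFKO is the group that differs from the rest, as in Tpm3, and in others AnkGKO is, as in Cwc22 and Crb1.

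The targeted genes were measured in every library. Ank3 (chromosome 10, 69234603 to 69863268, GRCm39) was at 407, 386 and 385 CPM in NFKO and at 156 and 200 CPM in AnkGKO. Every NFKO library lay above both AnkGKO libraries, with a log2FC of 1.14 (SE 0.10, edgeR adjusted p = 0.000402). Controls, at 353 to 375 CPM, were near NFKO, and DKO, at 160 to 185 CPM, were near AnkGKO. Ank3 was called in each of the alternative fits, including those that left out 1 library. Nfasc (chromosome 1, 132492428 to 132669564) was at 701, 622 and 635 CPM in NFKO and at 717 and 953 CPM in AnkGKO. Its libraries did not overlap either, but NFKO replicate 1 and AnkGKO replicate 1 were close together, and the log2FC of -0.36 (SE 0.11) did not pass (edgeR adjusted p = 0.316, with a range from 0.0387 to 0.998 over the alternatives). Counts over the whole gene do not separate NF186 from NF155, nor transcripts with and without the floxed part.

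The other genes of the AIS and node were described by their roles, and none besides Ank3 was called. Of 8 adhesion genes, 6 had a lower value in NFKO and the median log2FC was -0.12. Cntn2, an axonal contactin of the juxtaparanode, was at 714, 664 and 665 CPM in NFKO and at 517 and 637 CPM in AnkGKO, a log2FC of 0.24 (edgeR adjusted p = 0.544). Of 9 scaffold genes including Ank3, 7 were lower in NFKO, and apart from Ank3 the lowest adjusted p belonged to Spnb2, a β spectrin, at 0.611 with edgeR. The 10 sodium channel genes split evenly, with a median of -0.01. Scn2b, an auxiliary sodium channel subunit, stood at 168, 179 and 180 CPM in NFKO and at 142 and 122 CPM in AnkGKO, without overlap (log2FC 0.41, edgeR adjusted p = 0.591). The 8 potassium channel genes had a median of -0.08 and the 6 matrix and glial genes of the node a median of -0.01. In that group Gldn, which encodes gliomedin, a glial ligand of neurofascin, was at 5.66, 6.59 and 6.04 CPM in NFKO and at 4.60 and 2.63 CPM in AnkGKO (log2FC 0.75, edgeR adjusted p = 0.367).

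Kif5a and Kif5b, which the study names for other comparisons, encode heavy chains of the axonal transport motor kinesin-1. Kif5a was at 2601, 2879 and 2850.1 CPM in NFKO and at 1710.1 and 2040.4 CPM in AnkGKO. Controls stood at 2626 to 2866 CPM and DKO at 1981 to 2021 CPM, so no library with targeted AnkG reached the lowest one without it. The log2 fold change of NFKO against AnkGKO was 0.57 (SE 0.09, edgeR adjusted p = 0.0136), past the p-value threshold but short of 0.6, so Kif5a is not among the 71. It was called in 3 of 17 alternative fits, over which its log2FC ran from 0.45 to 0.70. Its adjusted p reached 0.133 when AnkGKO replicate 1 was left out. Kif5b was at 704, 657 and 637 CPM in NFKO and at 435 and 511 CPM in AnkGKO, with DKO at 468 to 502 CPM (log2FC 0.49, edgeR adjusted p = 0.0553).

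**Figure D3:**
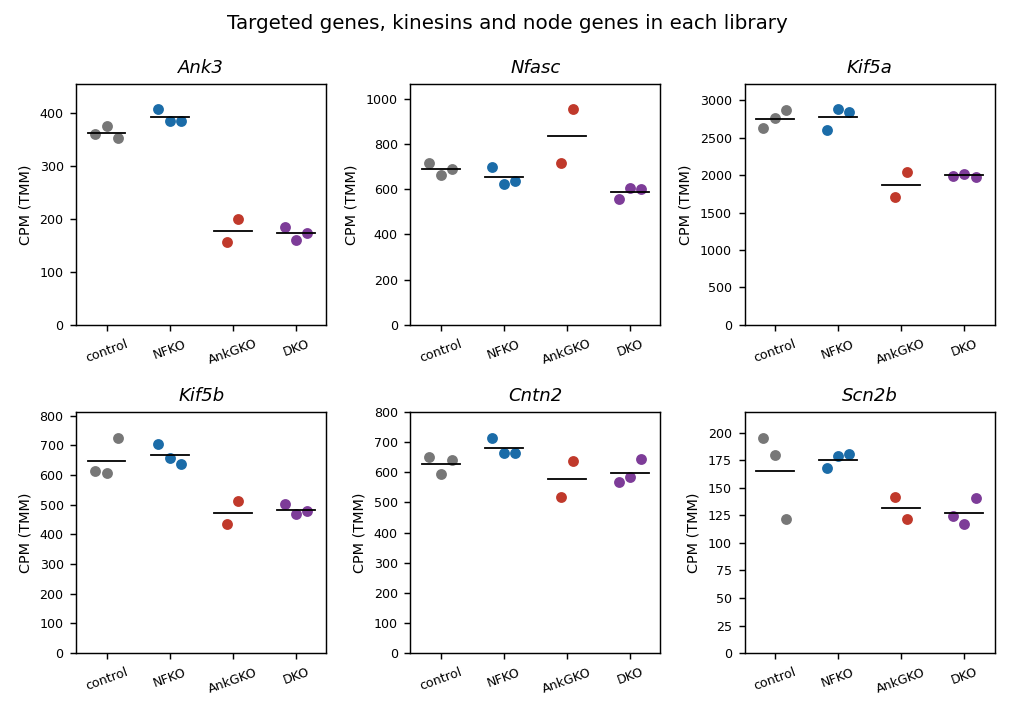
Points are TMM-normalized CPM of single libraries in the 4 genotypes and black lines are group means, on linear axes that start at 0. Ank3, Kif5a and Kif5b are lower in AnkGKO and DKO than in control and NFKO, whereas the Nfasc values of NFKO lie within 622 to 701 CPM beside 661 to 718 CPM in control.

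Of the 12 genes higher in NFKO with the smallest p-values, NFKO was the group apart in 6, and Ank3 is described above. Glo1, which encodes the glyoxalase that clears methylglyoxal, was at 150, 137 and 155 CPM in NFKO and at 73.1 and 72.5 CPM in AnkGKO. Controls (67.6 to 75.3 CPM) and DKO (73.3 to 77.7 CPM) lay with AnkGKO, and the log2FC was 1.02 (SE 0.07, edgeR adjusted p = 8.22e-05). Lyrm7, an assembly factor of respiratory complex III, was at 17, 15.5 and 16.4 CPM in NFKO and at 4.48 and 3.69 CPM in AnkGKO. This is a log2FC of 2.00 (SE 0.16), and the 6 control and DKO libraries stayed between 3.38 and 4.88 CPM. The same arrangement was seen for Hddc3, an HD-domain protein (33.4, 24.7 and 39.9 CPM against 10.3 and 9.38 CPM), and for Tmem144, a transmembrane protein (29.6, 29.4 and 29.1 CPM against 15.1 and 13.5 CPM). Cyb5r2, a cytochrome b5 reductase, had a log2FC of 2.16 and Adora2b, an adenosine receptor, one of 0.89. Cyb5r2 was not called without AnkGKO replicate 2 (adjusted p up to 0.0787 over the alternatives), and Adora2b was not called without either AnkGKO replicate (up to 0.104).

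In the other 5 of the 12 at least 1 of control and DKO lay with NFKO, and AnkGKO was low. Ctse, which encodes the endosomal protease cathepsin E, was at 3.39, 3.51 and 3.94 CPM in NFKO and at 0.536 and 0.369 CPM in AnkGKO, a log2FC of 2.98 (SE 0.29, edgeR adjusted p = 0.000758). Crb1, a cell polarity gene, was at 1.58 to 1.93 CPM in NFKO and at 0.454 and 0.478 CPM in AnkGKO, with controls and DKO at 1.87 to 2.31 CPM. Gucy1a3, a subunit of the nitric oxide receptor guanylate cyclase, was at 51.1 to 57.5 CPM in NFKO and at 38.7 and 31.1 CPM in AnkGKO. It had the smallest change of the 12, at 0.64. It was not called without NFKO replicate 1, without AnkGKO replicate 2 or in the fit to the 5 libraries. With the granule cell or the skeletal muscle genes as a covariate it was not called either (adjusted p up to 0.116 over the alternatives). Mcf2, a guanine nucleotide exchange factor, was at 40.6, 34.6 and 40.2 CPM in NFKO and at 21.3 and 23.6 CPM in AnkGKO, and DKO (22.4 to 25.2 CPM) lay with AnkGKO. Without AnkGKO replicate 1 its adjusted p was 0.075. Chi3l1, a secreted protein of reactive astrocytes, was at 63.8, 58.6 and 59.2 CPM in NFKO and at 34.3 and 36.6 CPM in AnkGKO, with controls between them at 43.9 to 49.8 CPM. Chi3l1 lost its call without either AnkGKO replicate.

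Of the 12 genes higher in AnkGKO with the smallest p-values, NFKO was the group apart in 7. Tpm3, which encodes a tropomyosin of the actin cytoskeleton, was at 8.59, 8.44 and 8.47 CPM in NFKO and at 26.1 and 27.1 CPM in AnkGKO. Controls and DKO, at 23.8 to 29.7 CPM, lay with AnkGKO, and the log2FC was -1.65 (SE 0.10, edgeR adjusted p = 9.65e-06). Rnps1, an RNA-binding protein of the exon junction complex, was at 11.6, 9.90 and 10.7 CPM in NFKO and at 21.0 and 19.8 CPM in AnkGKO. Rps2, a protein of the small ribosomal subunit, was at 4.59, 3.16 and 6.47 CPM in NFKO and at 18.6 and 19.6 CPM in AnkGKO, a log2FC of -2.01, and was the only 1 of 16 measured ribosomal protein genes that was called. It was not called in the fit to the 5 libraries alone (adjusted p = 0.0689). Wdfy1, an endosomal adaptor, was at 19.6, 16.1 and 20.4 CPM in NFKO and at 47.5 and 73.4 CPM in AnkGKO, with the 2 AnkGKO libraries far apart, and in the fit to the 5 libraries its adjusted p was 0.0509. Pkmyt1, a kinase that inhibits Cdk1, was at 2.77, 2.20 and 2.84 CPM against 6.40 and 7.71 CPM, and Kpna2, an importin, at 0.0963 to 0.191 CPM against 1.11 and 1.09 CPM. Alpk1, a kinase that senses a bacterial sugar, was at 5.05, 5.26 and 5.2 CPM in NFKO and at 9.70 and 10.7 CPM in AnkGKO. Tifa, the adaptor that acts below Alpk1, lies 8.604 kb from it, and its log2FC of -0.67 was next to -0.98 for Alpk1. Tifa was named after its values were seen, and each left-out library ended its call (adjusted p up to 0.203).

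In the other 5 genes of this group AnkGKO was high. Cwc22, a splicing factor that loads the exon junction complex, had the smallest p-value of all genes. It was at 9.81, 8.71 and 9.23 CPM in NFKO and at 51.0 and 56.7 CPM in AnkGKO, while controls and DKO stayed between 8.99 and 9.99 CPM (log2FC -2.54, SE 0.09, edgeR adjusted p = 7.87e-08). Mcm6, a subunit of the replicative helicase, was at 1.95, 1.5 and 1.52 CPM in NFKO and at 9.16 and 7.95 CPM in AnkGKO. Odc1, the first enzyme of polyamine synthesis, was at 11.1 to 12.8 CPM in NFKO and at 23.8 and 26.5 CPM in AnkGKO. Nav1, a microtubule-associated neuron navigator, was at 95.4, 97.9 and 80.5 CPM in NFKO and at 151 and 155 CPM in AnkGKO. The long noncoding RNA A930005H10Rik was at 6.90 to 7.35 CPM in NFKO and at 15.2 CPM in both AnkGKO libraries. In each of these 5 genes the control and DKO means lay nearer NFKO, and each was called in all alternative fits.

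Other called genes lay further down the order of p-values, and those in this paragraph were named after their values were seen. Dsp, which encodes the desmosomal protein desmoplakin, was at 0.574, 1.16 and 0.595 CPM in NFKO and at 8.44 and 5.74 CPM in AnkGKO (log2FC -3.19), with controls at 0.234 to 0.624 CPM and DKO at 1.17 to 2.64 CPM. Gas5, a host gene of small nucleolar RNAs, was at 19.6, 20.7 and 24.1 CPM in NFKO and at 47.8 and 33.6 CPM in AnkGKO, and only the AnkGKO libraries stood outside 19.6 to 24.6 CPM. Markers of squamous epithelium, where Dsp is also expressed, are given beside Sprr1a. Dsp was not called without NFKO replicate 3, without AnkGKO replicate 1 or with the granule cell genes as a covariate. Gas5 was not called without NFKO replicate 1, without AnkGKO replicate 1 or in the fit to the 5 libraries. With the skeletal muscle genes as a covariate Gas5 was not called either. Some enzymes of metabolism were called as well. Ahcy, the hydrolase of S-adenosylhomocysteine, was at 4.90, 5.53 and 5.09 CPM in NFKO and at 2.37 and 2.89 CPM in AnkGKO, and the 6 control and DKO libraries, at 4.14 to 5.37 CPM, lay with NFKO. D2hgdh, which oxidizes D-2-hydroxyglutarate, was at 4.24 to 4.48 CPM in NFKO and at 8.79 and 7.97 CPM in AnkGKO. Papss2, which makes the sulfate donor PAPS, was at 17.8, 15.9 and 17.3 CPM in NFKO and at 25.3 and 26.5 CPM in AnkGKO. Chdh, the choline dehydrogenase, was at 26.7 to 29.2 CPM in NFKO and at 15.5 and 14.5 CPM in AnkGKO, with controls between them at 19.3 to 19.7 CPM and DKO spread from 19.5 to 30.5 CPM. Ahcy was not called without either AnkGKO replicate or in the fit to the 5 libraries. Neither was it called with the granule cell or the skeletal muscle genes as a covariate. D2hgdh, Papss2 and Chdh lost their calls whichever library was left out (adjusted p up to 0.253 for Chdh over the alternatives).

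Genes induced in injured axons were, among the lists examined, the only one with more than 1 called gene, with 3 of 10 measured members called, all higher in AnkGKO, beside 0.239% of all genes called in that direction. Ecel1, a neuronal endopeptidase induced by nerve injury, was at 49.1, 41.8 and 45.3 CPM in NFKO and at 70.0 and 75.9 CPM in AnkGKO (log2FC -0.68, SE 0.11, edgeR adjusted p = 0.0144). Sprr1a, a small proline-rich protein of regenerating axons, was at 0.268, 0.135 and 0.111 CPM in NFKO and at 7.20 and 2.39 CPM in AnkGKO (log2FC -4.79, SE 0.75, edgeR adjusted p = 0.0269). Atf3, a stress-induced transcription factor of the ATF/CREB family, was at 1.80, 2.10 and 1.65 CPM in NFKO and at 3.49 and 4.78 CPM in AnkGKO (log2FC -1.16, SE 0.21, edgeR adjusted p = 0.0319). DKO values were above every NFKO value in all 3 genes, at 75.9 to 85.3 CPM for Ecel1, 2.29 to 3.01 CPM for Sprr1a and 2.26 to 2.78 CPM for Atf3. Of the fits with 1 library left out, Atf3 was called in none, Sprr1a only without AnkGKO replicate 2, and Ecel1 only without NFKO replicate 1. The highest adjusted p over the alternatives was 0.422 for Atf3, 0.156 for Sprr1a and 0.166 for Ecel1. The median of the list was -0.13, and 6 of the 10 genes were lower in NFKO. Sprr1a is also a gene of the cornified envelope of squamous epithelium, as Dsp, Padi1 and Scel are expressed there, so 21 tested markers of that tissue were listed after the data were seen. None was called (smallest adjusted p 0.0861 with edgeR, for Krt6a), yet all 21 had a lower value in NFKO, and 15 had every NFKO library below both AnkGKO libraries, beside 11.8% of all genes. They summed to 30.1, 33.0 and 31.0 CPM in NFKO and to 55.1 and 34.8 CPM in AnkGKO, and the excess was larger in AnkGKO replicate 1. Krt5, a keratin of basal keratinocytes, was at 0.0383, 0.0193 and 0.0929 CPM in NFKO, at 3.38 and 0.456 CPM in AnkGKO and at 0.0700, 0.957 and 0.164 CPM in DKO, and Krt13 was at 0 in every NFKO library and at 0.309 and 0.0869 CPM in AnkGKO. In DKO replicate 1 Sprr1a was at 2.29 CPM beside that lowest Krt5 value. The part of epithelial RNA in the values of Sprr1a, Dsp, Padi1 and Scel was not tested. Motor neuron genes (10 genes) summed to 812, 474 and 578 CPM in NFKO and to 524 and 1011.1 CPM in AnkGKO, and their part in the result was not tested.

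Because these 3 genes were higher together in AnkGKO, the 250 bases before each start are shown as RefSeq gives them on GRCm38.p6, 5′ to 3′ on the gene's strand, with capitals for 2 motifs read on both strands: TGANTCA, bound by AP-1, and TGACGT, the half-site of the cyclic AMP response element. The windows are chr1:191183334-191183583 for Atf3, chr3:92485882-92486131 for Sprr1a and chr1:87156357-87156606 for Ecel1, all on the minus strand.
Atf3: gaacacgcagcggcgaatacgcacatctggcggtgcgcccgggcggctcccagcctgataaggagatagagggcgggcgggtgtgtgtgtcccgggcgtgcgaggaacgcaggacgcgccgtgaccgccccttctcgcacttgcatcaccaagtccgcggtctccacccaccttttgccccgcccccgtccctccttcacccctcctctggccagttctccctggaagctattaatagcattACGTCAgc
Sprr1a: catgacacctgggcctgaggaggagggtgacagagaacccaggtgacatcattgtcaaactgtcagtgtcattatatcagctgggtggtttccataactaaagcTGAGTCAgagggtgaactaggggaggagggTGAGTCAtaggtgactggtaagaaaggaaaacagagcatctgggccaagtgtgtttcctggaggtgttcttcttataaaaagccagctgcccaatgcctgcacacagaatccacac
Ecel1: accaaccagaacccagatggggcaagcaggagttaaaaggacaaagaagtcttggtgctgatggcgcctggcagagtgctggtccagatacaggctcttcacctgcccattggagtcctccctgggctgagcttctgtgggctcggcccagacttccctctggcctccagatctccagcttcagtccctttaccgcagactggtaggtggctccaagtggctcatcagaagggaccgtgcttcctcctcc
The Sprr1a window held 2 matches to the AP-1 motif, beginning 146 and 116 bases before the start. The Atf3 window held 1 match to the half-site, read on the opposite strand and beginning 8 bases before the start, and the Ecel1 window held neither. Of 32851 promoter windows of this length, 6.75% held the AP-1 motif and 6.47% the half-site.

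Glial genes were described as lists, and no member passed the test. Of 19 genes of activated microglia, 18 had a lower value in NFKO than in AnkGKO, with a median log2FC of -0.28 beside 0.0018 for all genes, and 8 had every NFKO library below both AnkGKO libraries, beside 11.8% of all genes. Itgax, an integrin of activated microglia, was at 0.937, 0.462 and 0.650 CPM in NFKO and at 3.18 and 2.30 CPM in AnkGKO (log2FC -2.0, edgeR adjusted p = 0.189). Clec7a, a receptor for β-glucan, was at 3.08, 2.79 and 2.38 CPM in NFKO and at 7.26 and 4.32 CPM in AnkGKO (log2FC -1.07, adjusted p = 0.188), and Cst7, an inhibitor of lysosomal proteases, had a log2FC of -2.72 (edgeR adjusted p = 0.185). In these 3 genes DKO was at most 3.46 CPM for Clec7a, 1.20 CPM for Itgax and 0.630 CPM for Cst7. DESeq2 gave adjusted p-values of 0.00491 for Itgax, 0.00881 for Clec7a and 0.0123 for Cst7, and edgeR did not call them under any alternative. The 17 genes of homeostatic microglia had a median of -0.21, with 14 lower in NFKO. In 8 of these 17 as well, every NFKO library was below both AnkGKO libraries. The summed CPM of this homeostatic list was 668 to 736 in NFKO and 813 and 771 in AnkGKO, with both AnkGKO libraries above the 3 NFKO libraries, and its part in the values of the activation genes was not tested.

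Ccl3 and Tlr2, a chemokine and a receptor for bacterial lipoproteins, were called and were named after their values were seen. Ccl3 was at 0.306, 0.289 and 0.316 CPM in NFKO and at 1.88 and 1.22 CPM in AnkGKO (log2FC -2.34, edgeR adjusted p = 0.0126), and it was not called without NFKO replicate 1, without NFKO replicate 3 or without AnkGKO replicate 1 (adjusted p up to 0.159). Tlr2 was at 4.97, 5.86 and 4.87 CPM against 9.86 and 8.54 CPM and lost its call whenever 1 library was left out (up to 0.372).

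The astrocyte gene Gfap was higher in AnkGKO in every library, at 1537, 1495 and 1398 CPM in NFKO and at 3054 and 2532 CPM in AnkGKO. Its log2FC was -0.92 (SE 0.17, edgeR adjusted p = 0.0563), just outside the threshold. It passed with DESeq2 (adjusted p = 4.8e-06), and over all alternatives the adjusted p ran up to 0.372. Of 16 reactive astrocyte genes 10 were lower in NFKO, and of 9 homeostatic astrocyte genes 8 were, with medians of -0.16 and -0.11. Phgdh, the first enzyme of serine synthesis and expressed in astrocytes, was called and was named after its values were seen. It was at 9.22, 7.13 and 9.42 CPM in NFKO and at 19.4 and 18.7 CPM in AnkGKO, with DKO at 14.8 to 16.1 CPM (log2FC -1.15, edgeR adjusted p = 0.0102). Phgdh was not called without either AnkGKO replicate or with the skeletal muscle genes as a covariate.

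Genes of antigen presentation mostly had higher values in NFKO. Of 17 measured genes, 15 had a higher value in NFKO, the median log2FC was 0.35, and 10 had every NFKO library above both AnkGKO libraries, beside 12.1% of all genes. None was called. Cd74, the chaperone of class II molecules, was at 39.0, 55.4 and 27.3 CPM in NFKO and at 11.5 and 4.87 CPM in AnkGKO, with controls at 5.30 to 16.6 CPM (log2FC 2.31, edgeR adjusted p = 0.316). The class II genes H2-Eb1, H2-Ab1 and H2-Aa had log2FC of 2.64, 2.59 and 2.78, with adjusted p of 0.228, 0.431 and 0.432 with edgeR. They lie together on chromosome 17, 10.5 to 10.6 Mb from Pkmyt1, near other listed genes such as Psmb8 and Tap1. The part of their shared position was not tested. H2-Eb1 was at 13.5, 19.4 and 10.5 CPM in NFKO and at 3.45 and 1.17 CPM in AnkGKO. These 4 genes passed with DESeq2 alone, with adjusted p from 0.00262 for H2-Eb1 to 0.0499 for H2-Ab1. Meningeal and collagen genes (10 genes) had higher means in NFKO as well and summed to 1633, 3591 and 2050 CPM in NFKO and to 1741 and 801 CPM in AnkGKO, and their part in the class II values was not tested. Schwann cell genes (7 genes) summed to 647 to 729 CPM in NFKO and to 578 and 381 CPM in AnkGKO. Interferon response genes were evenly split, with 14 of 28 higher.

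All 15 measured genes of cholesterol synthesis and its control had a higher value in NFKO, with a median log2FC of 0.26 and a range from 0.14 to 0.55. In 11 of the 15 every NFKO library was above both AnkGKO libraries, beside 12.1% of all genes, and none was called. Insig1, a sterol-regulated protein of the endoplasmic reticulum, was at 125, 119 and 131 CPM in NFKO and at 75.1 and 95.0 CPM in AnkGKO (log2FC 0.55, SE 0.11, edgeR adjusted p = 0.0643). For Insig1, controls (118 to 132 CPM) and DKO (109 to 137 CPM) lay with NFKO. The 15 genes summed to 1974 to 2233 CPM in NFKO and to 1669 and 1941 CPM in AnkGKO. Their sums were 1876 to 2007 CPM in control and 1635 to 2047 CPM in DKO, which overlapped both mutants. Fdps, the farnesyl diphosphate synthase, was at 31.9, 27.7 and 31.5 CPM in NFKO and at 22 and 24.2 CPM in AnkGKO (log2FC 0.39, edgeR adjusted p = 0.298). Oligodendrocyte and myelin genes had a median of 0.03, with 10 of 14 higher in NFKO.

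**Figure D4:**
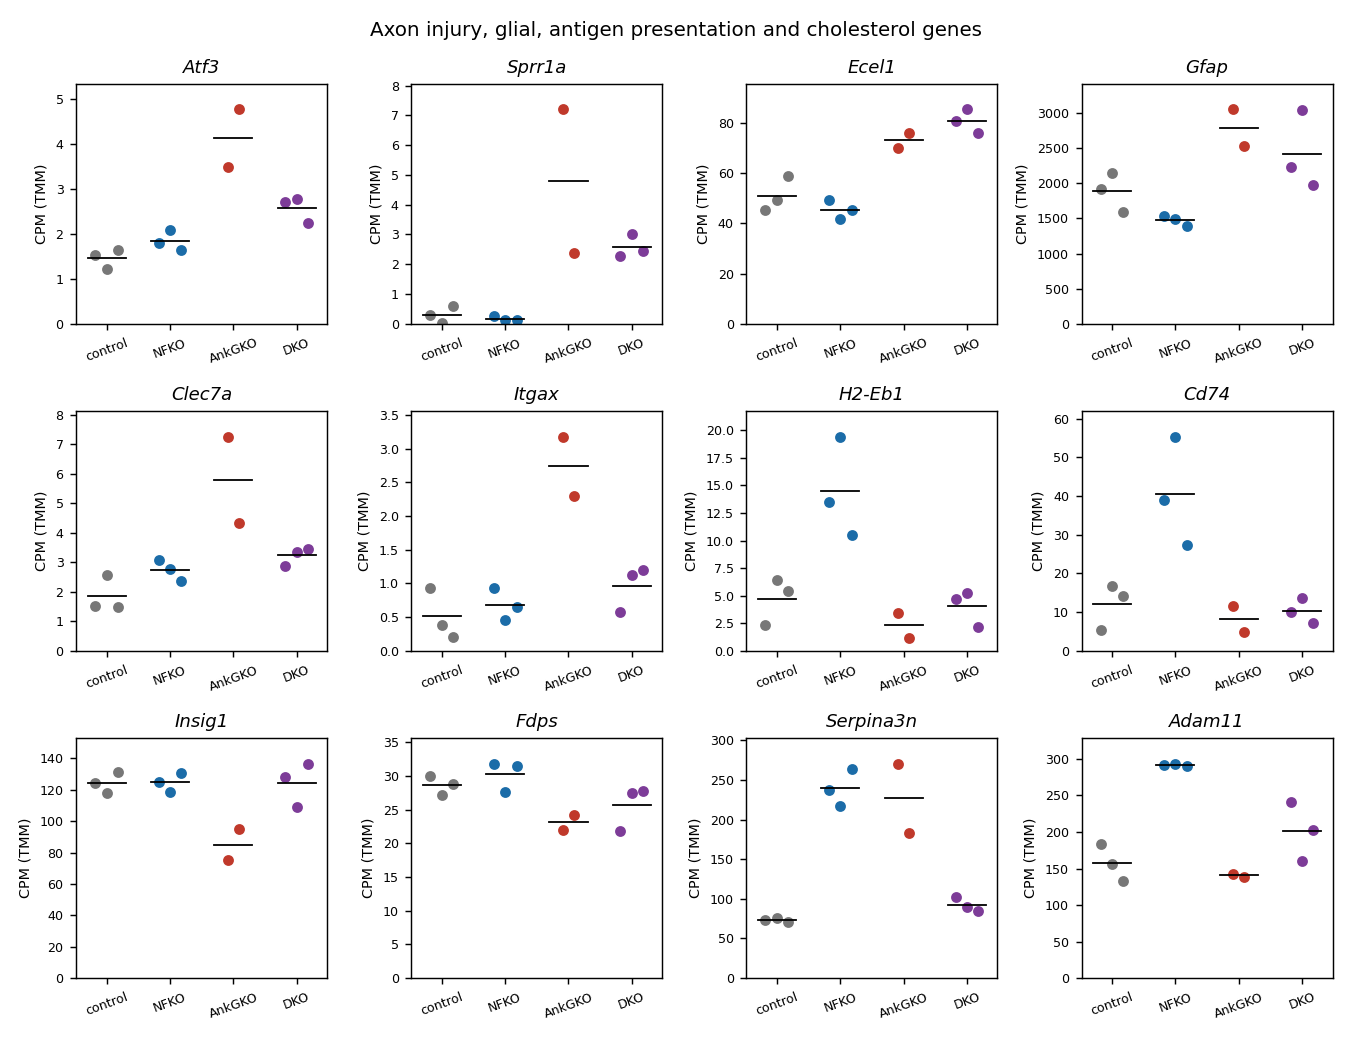
Points are TMM-normalized CPM of single libraries in the 4 genotypes and black lines are group means, on linear axes that start at 0. Atf3, Sprr1a and Ecel1 are higher in AnkGKO and DKO than in NFKO, Clec7a and Itgax are highest in AnkGKO, and H2-Eb1 and Cd74 are highest in NFKO. Serpina3n is at 184 to 270 CPM in both single mutants beside 70.4 to 75.7 CPM in control.

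The synaptic lists lay close to the median of all genes. Of 23 genes of synaptic vesicles and release, 11 were higher in NFKO, with a median of -0.01. Of 24 postsynaptic genes, 9 were higher, with a median of -0.05. Neither list had a called gene. Snap25, a core protein of vesicle fusion, was at 3325, 3141 and 3268 CPM in NFKO and at 2931 and 3105 CPM in AnkGKO, a log2FC of 0.10 (edgeR adjusted p = 0.869). Of 12 immediate early genes 6 were higher, and of 19 genes of oxidative phosphorylation 16 were, with a median of 0.08. Of 13 genes that the study names for its single knockouts none was called, and the smallest adjusted p was 0.188 for Clec7a with edgeR. Purkinje cell genes (15 of 16 higher in NFKO, median 0.80) and granule cell genes (10 of 10, median 0.98) had no called gene either, and their sums were highest in NFKO replicate 1.

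Adam11, a neuronal transmembrane protein of the disintegrin family, was named after its values were seen. It was at 292, 293 and 291 CPM in NFKO and at 142 and 139 CPM in AnkGKO, a log2FC of 1.05 (SE 0.16, edgeR adjusted p = 0.0207). Controls spread from 133 to 183 CPM and DKO from 160 to 241 CPM, and leaving out any 1 of the 5 libraries ended the call (adjusted p up to 0.224 over the alternatives).

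Some genes stood far from control in both single mutants and were not called between them. These were named after their values were seen, and both mutants are set against the same 3 controls. Thy1, a glycoprotein of the neuronal surface, was at 1726, 1371 and 1787 CPM in NFKO, 1901 and 1749 CPM in AnkGKO and 689 to 730 CPM in control, and the log2 fold change of NFKO against AnkGKO was -0.16 (SE 0.10, edgeR adjusted p = 0.784). Cadps, a priming factor of dense-core vesicles, was at 234 to 262 CPM in NFKO, 244 and 270 CPM in AnkGKO and 494 to 542 CPM in control. Serpina3n, a protease inhibitor of reactive astrocytes, was at 237, 217 and 264 CPM in NFKO and at 270 and 184 CPM in AnkGKO, with DKO at 84.2 to 103 CPM. Rps3a, a ribosomal protein gene, was at 1.91, 0.559 and 1.60 CPM in NFKO and at 0.371 and 0.413 CPM in AnkGKO, beside 21.2 to 26.4 CPM in control and 22.8 to 26.4 CPM in DKO. Its difference between the single mutants (log2FC 1.79, SE 0.46) did not pass (edgeR adjusted p = 0.240). It passed with DESeq2 (adjusted p = 0.0105) and without NFKO replicate 2 (0.0007), and the range over the alternatives reached 0.826.

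The called genes were unevenly placed along the genome, with 13 of 1040 tested genes on chromosome 1 (1.25%), 11 of 838 on chromosome 3 (1.31%), 11 of 815 on chromosome 17 (1.35%) and 10 of 1372 on chromosome 11 (0.729%), beside 0.404% overall. Within 20 Mb of Nfasc, 7 of 181 tested genes were called (3.87%): Tmem37, Mcm6, Ctse, Chi3l1, Nav1, Tnni1 and Crb1. In 6 of these 7 the control mean was nearer NFKO, and in all 7 the DKO mean was nearer NFKO, and the exception for control was Chi3l1. NFKO and DKO carry floxed Nfasc by their labels and AnkGKO does not, while the sources differ on whether every control does. Tnni1, a troponin of slow muscle, was at 0.784, 2.27 and 0.910 CPM in NFKO and at 8.31 and 7.73 CPM in AnkGKO, opposite in direction to the 8 skeletal muscle genes. Tnni1 was called in 9 of 17 alternative fits. Among others, it was not called without NFKO replicate 1, without NFKO replicate 3 or without either AnkGKO replicate (adjusted p up to 0.172 over the alternatives). Tmem37 was called in 2 of 17 alternative fits and lost its call whenever 1 library was left out. The number called within this window was 4 without either AnkGKO replicate. The genotype and the chromosomal segment that carries the floxed allele cannot be told apart here. Within 20 Mb of Ank3, 1 of 378 tested genes was called, Ank3 itself.

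On chromosome 17 the control mean was nearer AnkGKO in all 11 called genes. A stretch of 0.996 Mb from Pkmyt1 to Rps2 (23945254 to 24940904) held 7 of them among 47 tested genes (14.9%), 3 higher and 4 lower in NFKO, and this stretch was picked after the positions were seen. In all 7 NFKO was the group apart. Of these 7, 4 were still called without NFKO replicate 1, 5 without NFKO replicate 2, 3 without NFKO replicate 3, 4 without AnkGKO replicate 1 and 3 without AnkGKO replicate 2. Prss41, a serine protease, was at 1.87, 1.44 and 1.91 CPM in NFKO and at 0.268 and 0.0434 CPM in AnkGKO, and controls and DKO were at most 0.164 CPM. Within it D330041H03Rik and Rnps1 overlap by 1.053 kb and moved in opposite directions, with log2FC of 1.70 and -0.92. Further along the chromosome, Glo1 and Dnahc8 overlap by 2.517 kb and were both higher in NFKO. The library kit marks strand, but whether the counting used it is not given in the sources used here, so reads of overlapping genes may not have been told apart.

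**Figure D5:**
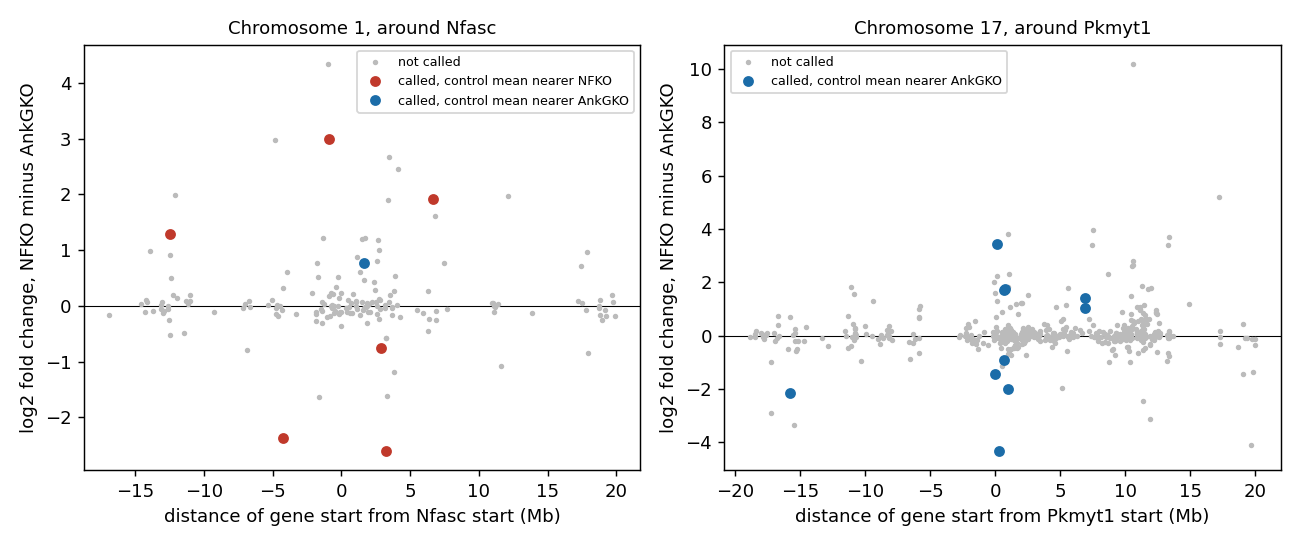
Each point is a tested gene within 20 Mb of the start of Nfasc on chromosome 1 (left) or of Pkmyt1 on chromosome 17 (right), with the distance between gene starts in Mb on the x axis and the log2 fold change of NFKO minus AnkGKO on the y axis. Red points are called genes whose control mean is nearer NFKO and blue points called genes whose control mean is nearer AnkGKO, and on the right all are blue.

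Sequence shared with other genes limits some of these counts. Of the 70 called genes with transcripts in GENCODE vM39, 20 had more than 5% of their 50-base words in another gene's transcripts and 6 had more than 20%. The share was 60.3% for Ahcy, 44.8% for Kpna2, 28.1% for Phgdh and 25.5% for Rps2. It was 17.9% for Rnps1, 15.4% for Tpm3, 13.6% for Odc1, 11.4% for Cwc22, 10.8% for Hddc3 and 5.19% for Glo1, so the counts of these genes are uncertain where reads could be placed on a copy. Reads listed as not uniquely aligned were 32.5 to 34.3% of all reads tallied in the 5 libraries. Low counts limit others, since 12 of the 71 genes had a mean under 1 CPM in the 5 libraries. Colec10, a lectin named after its values were seen, had 2 counts over the 3 NFKO libraries and 67 over the 2 AnkGKO libraries, a ratio of 56.0 per unit depth (95% exact interval 14.9 to 472, counting error only), and was not called without AnkGKO replicate 1. Gbp8, likewise, had 24 counts in NFKO and 0 in AnkGKO, which is at least 4.78-fold higher against a floor of 3 counts over the group (lower 95% exact limit of the ratio 3.60, counting error only), and each left-out library ended its call (adjusted p up to 0.263).

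Distances between libraries were compared over the 500 most variable genes after variance stabilization. NFKO libraries lay 14.6 to 17.3 apart (mean 16.4) and the AnkGKO pair 11.5 apart. Libraries of different genotype lay 10.1 to 25.2 apart (mean 17.7). The mean distance between the genotypes was 1.16 times the mean of the 4 distances within a genotype, and the closest pair of different genotype was closer than the AnkGKO pair.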

How the data were processed

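Bulk RNA labelled as cerebellar hemisphere, listed with a RIN of at least 8.2, was sequenced in 11 libraries (3 control, 3 NFKO, 2 AnkGKO and 3 DKO by their labels, where the methods of the study state 3 AnkGKO). Per the labels and the study's methods, libraries were made with a strand-specific kit, and reads (100 bases and single-end by the labels, paired-end by the methods) were trimmed with Trimmomatic 0.39, aligned to GRCm39 with STAR 2.7.11a and checked with FastQC 0.12.1. The authors deposited raw read counts per gene symbol for all libraries in 1 table, which were used as deposited; their normalized values were not used. The counter, its gene models and its use of strand are not given without contradiction in the sources used here. The 5 summary rows (no feature, ambiguous, not uniquely aligned and the like) were left out of library sizes and tests; not uniquely aligned reads were 32.5 to 34.3% and reads on no feature 9.23 to 10.4% of all reads in the 5 libraries compared.

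Genes with a total of 10 counts or more were fitted in 1 model of 4 group means over the 11 libraries with edgeR 4.0.16 (TMM, robust quasi-likelihood test, R 4.3.3), and NFKO was contrasted with AnkGKO. P-values were adjusted by Benjamini-Hochberg over all 17557 genes, and genes were called where the adjusted p was under 0.05 and log2FC was 0.6 or more in either direction. The replicates are listed as separate biological samples with no animal named, so p-values measure the spread between these samples. Counts set the precision of low genes, and intervals and floors cover counting error only. The script was tested on simulated counts. Named genes were the targeted genes, the 12 called genes in each direction with the smallest p among those whose libraries did not overlap, called members of the gene lists, up to 4 members of each list, called genes within 20 Mb of a targeted gene and genes named by the study; others are said to have been named after their values were seen. The members and lists were chosen with earlier results of these data known. The squamous epithelium markers were listed after the data were seen. Symbols were placed on GENCODE vM39 (GRCm39), of which 18191 matched directly and 2220 by an older symbol, and promoters were taken from RefSeq (GRCm38.p6). Shared sequence was the share of a gene's 50-base words found in transcripts of another gene on the same strand.

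Alternatives were DESeq2 1.42.0, its size factors in edgeR, other count filters, fits to fewer groups, replicate number as a block, covariates (Xist, granule cell genes, and, chosen after the data were seen, skeletal muscle genes and Hoxc8), other thresholds and windows, and leaving out each of the 5 libraries. No batch could be separated, since all libraries carry batch 1.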

Additional observations from a re-analysis of the deposited data

How the results depend on the processing

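The count of 71 genes became 198 with DESeq2, which kept all 71, and 42 with the granule cell genes as a covariate, of which 39 were among the 71. Leaving out 1 library gave 28 to 52 genes, lowest without AnkGKO replicate 1. The count ranged from 48 to 73 under the other fits (DESeq2 size factors 71, edgeR's expression filter 71, no filter 70, at least 10 counts in the 5 libraries 70, only these libraries 69, no control 56, Xist 73, skeletal muscle genes 48, Hoxc8 73). With the adjusted p alone 87 genes passed, and 50 of the 71 had a log2 difference of 1 or more. Of the 71 genes 17 were called in every fit, and none changed direction. Genes called within 20 Mb of Nfasc numbered 4 to 6 without 1 library and 5 to 8 in the other fits. Deviations from the group mean had r = -0.36 and -0.35 between same-numbered NFKO and AnkGKO libraries 1 and 2 (13910 genes, which are not independent). Between differently numbered ones r was 0.36 and 0.35. The deviations of 2 AnkGKO libraries are mirror images, so these values cannot decide whether libraries are paired. Nothing in the labels ties a number to a litter or day. With the replicate block 53 genes were called, of which 48 were among the 71. Among genes that were not called, Serpina3n turned to -0.18 (log2) and Cadps to 0.013 without AnkGKO replicate 2 (ranges without 1 library -0.18 to 0.39 and -0.13 to 0.013), and Cadps to 0.048 with the skeletal muscle genes as a covariate. The cause was not tested. The ratio of distances was 1.16 over 1000 genes and 1.11 over all genes. With 2 AnkGKO libraries, each of them weighs heavily in every AnkGKO mean, and genes under 1 CPM rest on few counts.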
